A study of Nannochloropsis oceanica with 6 samples.

Results

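Histone transcripts were examined in the marine microalga Nannochloropsis oceanica IMET1 during nitrogen deprivation (ND), through 4 genes chosen by identifier out of 10569 in the deposited tables. These genes were NO10G02070 (described as histone H2A-IV), NO10G02080 (histone H2B), NO14G01290 (histone H3.2) and NO09G00230 (histone H3-like centromeric protein CSE4). They had been chosen because of how they differed among the samples in an earlier analysis of the same data, so their levels and fold changes are given as a description without a test. Tests are given for other genes, among them the other 8 genes of the 12 described as histones. Some tested genes were also named by their values, namely the largest rises and falls of each list and genes marked below as such. The lists themselves were made with earlier results of these data known.

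Poly-adenylated RNA had been sequenced in 6 libraries, 2 in each of 3 groups, all of strain IMET1. The C0 libraries (day 0) came from cells grown to the logarithmic phase in a modified f/2 medium with nitrate, under continuous light of 80 µmol photons (per square metre and second). For N1 and N2, washed cells of such cultures had been held for 1 and 2 days in nitrogen-free medium, under 50 µmol photons in the same unit. The light, the wash and the transfer therefore changed together with nitrogen between C0 and the other groups, and their effects cannot be told apart. The labels do not say that the libraries of a group came from separate cultures, so p-values may measure technical spread only. The results section of the study calls its RNA libraries biological replicates, while its methods mention more replicate samples per condition than the 2 here.

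Library totals lay between 4875888 and 6523021 estimated counts, and replicates differed by more than counting error, with a mean chi-square per gene of 1.75 (C0), 2.06 (N1) and 3.41 (N2). As a check of the labels, the high affinity nitrate transporter NO14G02450, a gene known to respond to low nitrogen, had 7599 and 7613 CPM in N1 and 11300 and 11321 CPM in N2, against 205 and 202 CPM in C0. CPM values are read counts relative to library size, adjusted by a TMM normalization factor, and they measure a share of the library. A lower histone share and a larger amount of other RNA per cell cannot be told apart in such values.

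Histones are the proteins around which nuclear DNA is wound. A pair each of H3 and H4 forms the core of the nucleosome, and H2A and H2B join it as dimers, so the 4 classes are needed in matched amounts when new DNA is packaged. In yeasts, animals and plants, most core histone transcripts are made in the S phase of the cell cycle, while variant histones such as the H2A.Z family are made throughout it. A variant of H3, called CSE4 in yeast and CENP-A in animals, replaces H3 at the centromere and carries the kinetochore, to which the spindle attaches. In animals many histone transcripts end without a poly-A tail, and the sources used here do not say how they end in this alga, so poly-A selection could have taken histone transcripts unevenly.

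The family was small in the deposited annotation. Swiss-Prot descriptions and KEGG Orthology terms found the same 12 genes, which comprised 3 for H2A, 3 for H2B, 3 for H3, 1 for the CSE4-like histone and 2 for H4, and no gene was described as a linker histone H1. All 12 passed the filter of 1 CPM in at least 2 libraries. The class of the H2A, H2B and H3 genes was the same in both annotations, but the centromeric label of NO09G00230 rested on its Swiss-Prot match to CSE4 of the yeast Candida albicans. Its KEGG term was plain H3, its best match in the NR database was described as a histone core protein of the green alga Ostreococcus tauri, and the NR match of another gene, the H3.2 gene NO03G01990, was described as a CSE4-like protein of soybean. NO09G00230 is called CSE4 below in the sense of that Swiss-Prot description only.

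By the order of gene identifiers, 9 of the 12 histone genes stood near another histone gene. The H2A-IV gene NO10G02070 was directly followed by the H2B gene NO10G02080 on chromosome 10, and the H3.2 gene NO14G01290 by an H4 gene, NO14G01300, on chromosome 14. On chromosome 3 the H3.2 gene NO03G01990 was directly followed by the H2A-IV gene NO03G02000, with the H4 gene NO03G01960 3 identifiers before the H3.2 gene, and a pair of H2B genes, NO25G00800 and NO25G00810, stood on chromosome 25. CSE4, on chromosome 9, had no histone gene beside it. No genome of the build used by the study was analysed here, so strands, distances and sequences are not given.

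The H2A-IV gene NO10G02070 encodes a form of H2A, a partner of H2B in the nucleosome dimer. Its estimated counts were 182 and 183 (C0), 153 and 138 (N1) and 139 and 121 (N2). Scaled to the libraries this was 36.1 and 35.0 CPM in C0, 30.3 and 29.4 CPM in N1 and 20.5 and 18.5 CPM in N2. The groups did not overlap, and the level stepped down at each day. The log2 fold change was -0.25 ± 0.13 (approximate SE from the fit over 6 libraries) in N1 against C0, -0.86 ± 0.13 in N2 against C0 and -0.61 ± 0.13 in N2 against N1. Most of the difference thus lay between the first and the second day, and the level in N2 was 0.549 of that in C0.

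The neighbouring H2B gene NO10G02080 did not follow it on the first day. Its estimated counts were 561 and 539 (C0), 644 and 624 (N1) and 463 and 477 (N2), which corresponded to 111.3 and 103.2 CPM in C0, 127.7 and 133.0 CPM in N1 and 68.4 and 72.9 CPM in N2. The N1 libraries lay above both C0 libraries and the N2 libraries lay below them. The log2 fold change was 0.28 ± 0.071 in N1 against C0, -0.60 ± 0.074 in N2 against C0 and -0.88 ± 0.072 in N2 against N1. Between the 2 ND days both genes of the pair were lower at day 2, with N2 at 0.542 of N1 for H2B and at 0.654 of N1 for H2A-IV.

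The H3.2 gene NO14G01290 encodes a form of H3, which pairs with H4 and whose tail carries many of the histone modifications. Its estimated counts were 244 and 286 (C0), 570 and 616 (N1) and 782 and 686 (N2). These were 48.4 and 54.8 CPM in C0, 113.0 and 131.3 CPM in N1 and 115.5 and 104.8 CPM in N2. Every ND library lay above both C0 libraries, and the N1 and N2 libraries overlapped. The level in N1 was 2.36 times and that in N2 2.13 times that in C0 (log2 fold change 1.24 ± 0.098 and 1.09 ± 0.096), while N2 against N1 gave -0.15 ± 0.084. This was the only gene of the 4 that was at the higher level on both ND days.

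CSE4 had the fewest reads of the 4 genes and so the largest error. Its estimated counts were 78 and 73 (C0), 34 and 37 (N1) and 105 and 79 (N2), or 15.5 and 14.0 CPM in C0, 6.74 and 7.89 CPM in N1 and 15.5 and 12.1 CPM in N2. The N1 libraries lay below all others, and the N2 libraries overlapped those of C0. The log2 fold change was -1.01 ± 0.23 in N1 against C0, -0.092 ± 0.20 in N2 against C0 and 0.92 ± 0.23 in N2 against N1, so that N1 stood at 0.497 of C0 and N2 at 1.89 times N1. The sign of the small N2 against C0 value was not stable, since leaving out single libraries gave values between -0.28 and 0.072.

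**Figure D1:**
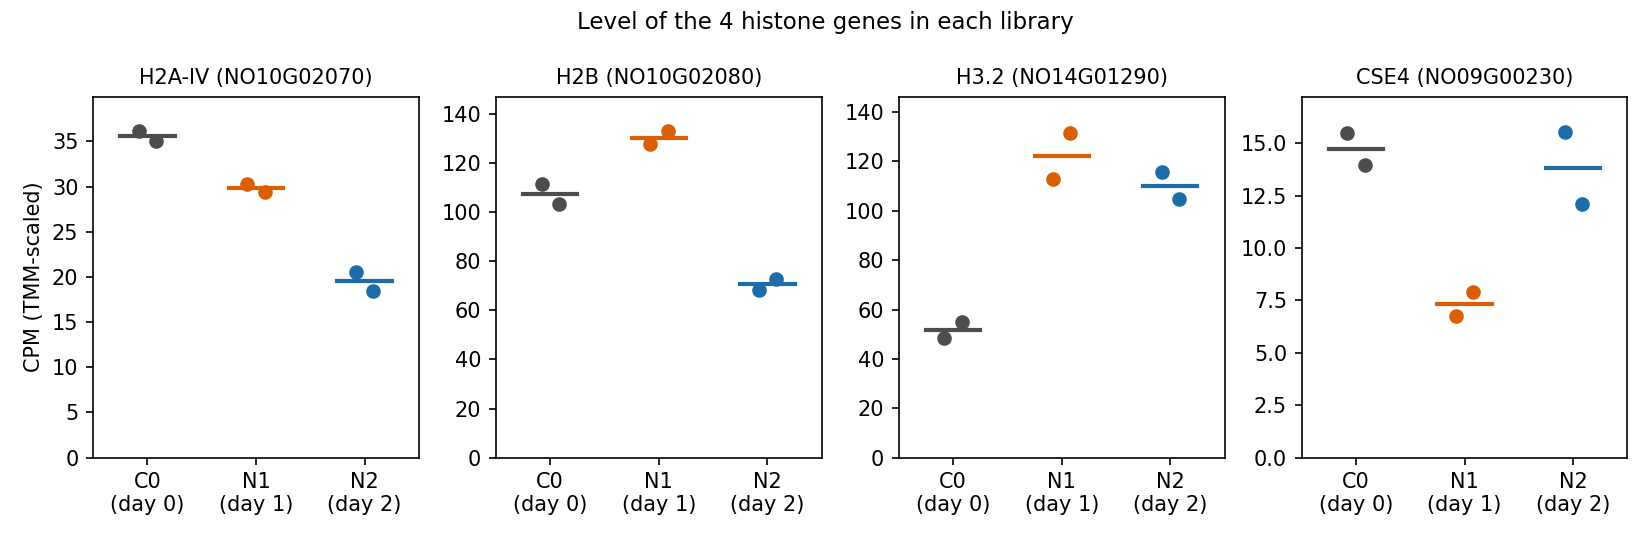
Level of the 4 histone genes in CPM (linear axes from 0, a separate scale for each gene) in C0, N1 and N2, with a point for each of the 2 libraries of a group and a line at their mean. H2A-IV steps down at each day, H2B is highest in N1 and lowest in N2, H3.2 lies between 104.8 and 131.3 CPM in the ND libraries and at 48.4 and 54.8 CPM in C0, and CSE4 is lowest in N1.

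The 4 genes thus had 4 different patterns over the 3 groups. In N1 against C0 the libraries of the groups did not overlap for any of the 4 genes, with 2 higher and 2 lower, where 84.4% of all 9736 genes tested did not overlap (40.0% higher and 44.4% lower). In N2 against C0 they did not overlap for 3 genes, 1 higher and 2 lower, beside 84.8% of all genes (43.2% higher and 41.7% lower). In N2 against N1 they did not overlap for 3 genes, 1 higher and 2 lower, beside 78.2% of all genes (39.6% higher and 38.6% lower). Separation of this kind was thus the common case, and because the genes had been chosen on these comparisons nothing is read from their counts. In all the alternative scalings, filters, tests and left-out libraries tried, each of these fold changes kept its direction except that of CSE4 in N2 against C0.

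Levels of different genes can be compared only per length, for which the deposited TPM values, scaled for length, were used and are given as the mean ± SD of 2 libraries. In C0 the order was H2A-IV (413 ± 9.23 TPM), H2B (348 ± 19.4 TPM), CSE4 (118 ± 8.67 TPM) and H3.2 (111 ± 9.40 TPM), and the libraries of CSE4 and H3.2 overlapped. In N1 it was H2B (424 ± 11.7 TPM), H2A-IV (345 ± 1.06 TPM), H3.2 (265 ± 26.3 TPM) and CSE4 (58.7 ± 7.50 TPM), with no overlap between neighbours. In N2 it was H3.2 (253 ± 17.2 TPM), H2B (239 ± 12.9 TPM), H2A-IV (216 ± 3.67 TPM) and CSE4 (108 ± 14.8 TPM), where H3.2 and H2B overlapped. H3.2 therefore stood last or next to last among the 4 in C0 and first or second in N2, on the level scale.

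These TPM levels depend on short gene models. The model of H2A-IV was 405 bases long, that of CSE4 468, that of H2B 747 and that of H3.2 977, and the effective length by which the authors divided ranged over the 6 libraries between 125.8 and 156.7 bases for H2A-IV, between 182 and 217 for CSE4, between 455 and 494 for H2B and between 685 and 724 for H3.2. Of the 12 histone genes, 8 had a model length that was a multiple of 3, as models without untranslated ends have. Among these the model of NO03G01990 was 1563 bases long, so the length alone does not show what a model holds. All 4 genes had a single transcript in the files and whole estimated counts in all 6 libraries, to a tolerance of 0.005. Fold changes between groups on the log2(TPM + 1) scale kept the direction of each count-based value, and the largest departures were those of H3.2 in N2 against C0 (1.18) and in N2 against N1 (-0.063).

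The adjacent genes of a pair did not hold a fixed ratio. The TPM level of H2B over that of its H2A-IV neighbour was 0.862 and 0.822 (C0), 1.21 and 1.25 (N1) and 1.06 and 1.17 (N2), so both ND groups lay above C0 and the 2 ND groups did not overlap. The TPM level of the H4 gene NO14G01300 over that of its H3.2 neighbour was 4.29 and 3.31 (C0), 2.35 and 2.48 (N1) and 1.43 and 1.67 (N2), so the ratio was lower at each day. The H4 gene itself had 44.1 and 38.3 CPM in C0, 57.9 and 68.2 CPM in N1 and 40.0 and 39.4 CPM in N2. It rose in N1 against C0 (log2 fold change 0.61 ± 0.11, edgeR adjusted p = 0.000208) and fell in N2 against N1 (-0.66 ± 0.11, adjusted p = 0.000122), and N2 against C0 gave -0.050 ± 0.12 (adjusted p = 0.712). For the H3.2 gene beside it the N2 and N1 libraries overlapped.

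The other neighbours were not histone genes. Before CSE4 stood an acetyl-CoA carboxylase gene (NO09G00220), which encodes the enzyme of the first committed step of fatty acid synthesis, and it had 2759 and 2710 CPM in N1, against 797 and 774 CPM in C0 (log2 fold change 1.80 ± 0.038, edgeR adjusted p = 1.29e-14). In N2 it had 1519 and 1641 CPM, above C0 (1.01 ± 0.037, adjusted p = 8.92e-12) and below N1 (-0.79 ± 0.037, adjusted p = 4.67e-10). It thus was highest in the group in which CSE4 was lowest. The undescribed gene NO09G00240 after CSE4 passed the test in no comparison. Before the H2A-IV gene, LYR motif-containing protein 4 (NO10G02060), a factor of iron-sulfur cluster assembly in other eukaryotes, had 8 and 7 estimated counts in N1 and 31 and 18 in C0 (-1.62 ± 0.49, adjusted p = 0.00824), and this call was lost without C0 replicate 1 (adjusted p = 0.10). After the H2B gene, the undescribed NO10G02090 rose by 0.25 ± 0.057 in N1 and by 0.22 ± 0.056 in N2 against C0 (adjusted p = 0.00124 and 0.00318). Before the H3.2 gene, a TVP38/TMEM64 family membrane protein (NO14G01280) rose in N2 against C0 (0.60 ± 0.14, adjusted p = 0.00164) and gave -0.050 ± 0.16 in N1 against C0 (adjusted p = 0.79).

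In N2 against C0, genes with the same description as the chosen H2A-IV and H3.2 genes changed in the other direction. The second H2A-IV gene, NO03G02000, had 104.4 and 94.0 CPM in C0, 229.9 and 234.7 CPM in N1 and 145.7 and 140.6 CPM in N2. It rose in N1 against C0 (log2 fold change 1.23 ± 0.063, edgeR adjusted p = 2.33e-10) and in N2 against C0 (0.53 ± 0.065, adjusted p = 4.09e-06), and fell in N2 against N1 (-0.70 ± 0.058, adjusted p = 1.74e-07). Both ND groups thus lay above C0 for this gene, whereas both lay below C0 for the H2A-IV gene NO10G02070. The third H2A gene, NO22G01340, was described as H2A.V, a human member of the H2A.Z family of variants. It had 63.2 and 66.3 CPM in N2, against 42.7 and 50.9 CPM in C0 (0.47 ± 0.11, adjusted p = 0.00204) and 53.1 and 42.6 CPM in N1 (0.43 ± 0.11, adjusted p = 0.00485). The rise over N1 was not called without N1 replicate 2 (0.24, adjusted p = 0.122), and neither rise was called on the log2(TPM + 1) scale (adjusted p = 0.0534 against C0 and 0.0771 against N1).

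The H3 genes also split. The second H3.2 gene, NO03G01990, had 202 and 218 CPM in C0, 370 and 377 CPM in N1 and 157 and 161 CPM in N2. It rose in N1 against C0 (0.83 ± 0.055, edgeR adjusted p = 4.44e-09), fell in N2 against C0 (-0.40 ± 0.057, adjusted p = 2.05e-05) and fell in N2 against N1 (-1.23 ± 0.055, adjusted p = 3.27e-10). The first-day rise was thus gone by the second day in NO03G01990 and still there in NO14G01290. The H3.1 gene NO11G00250 had 104.2 and 101.3 CPM in C0, 88.8 and 89.1 CPM in N1 and 73.4 and 70.8 CPM in N2, and fell in N2 against C0 (-0.51 ± 0.070, adjusted p = 1.40e-05) and in N2 against N1 (-0.30 ± 0.072, adjusted p = 0.0025). Its lower value in N1 than in C0 (-0.21 ± 0.071, adjusted p = 0.0179) was called with all libraries. The call was lost with DESeq2 (adjusted p = 0.22), without C0 replicate 1 (0.0767), without N1 replicate 1 (0.0614) and without N1 replicate 2 (0.117). Its profile stepped down at each day, as that of the H2A-IV gene NO10G02070 did.

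The H2B genes on chromosome 25 moved little. NO25G00800 had 149 and 154 CPM in N2, against 176 and 179 CPM in C0 (-0.22 ± 0.054, edgeR adjusted p = 0.00203) and 188 and 187 CPM in N1 (-0.30 ± 0.054, adjusted p = 0.000251). In N1 against C0 it gave 0.081 ± 0.055 (adjusted p = 0.203). In each comparison its direction was that of the chosen H2B gene NO10G02080, at a smaller size. That gene had 0.28 in N1 against C0, -0.60 in N2 against C0 and -0.88 in N2 against N1. NO25G00810 passed the test in no comparison, with log2 fold changes between -0.24 and 0.0049. Both had fractional estimated counts in all libraries, as arise when reads are divided between genes or transcripts, so their values are uncertain, and the falls of NO25G00800 were not called on the log2(TPM + 1) scale (adjusted p = 0.366 against C0 and 0.0863 against N1). The second H4 gene, NO03G01960, had 12.3 and 10.9 CPM in C0, 19.6 and 16.4 CPM in N1 and 17.7 and 15.7 CPM in N2. It rose in N1 against C0 (0.64 ± 0.20, adjusted p = 0.00946) and in N2 against C0 (0.53 ± 0.19, adjusted p = 0.0229). The first call was lost when C0 replicate 2 was left out (adjusted p = 0.0682) and when N1 replicate 1 was (0.0814), and the second without C0 replicate 2 (0.132), without N2 replicate 1 (0.122) and with DESeq2 (0.128).

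Counted over the 8 other histone genes, 4 rose and 1 fell in N1 against C0, 3 rose and 3 fell in N2 against C0, and 1 rose and 5 fell in N2 against N1. Of all 9736 genes tested, 70.4% were called in N1 against C0 (33.3% higher, 37.1% lower), 69.9% in N2 against C0 (35.0% higher, 34.9% lower) and 57.9% in N2 against N1 (29.4% higher, 28.5% lower). The total shares called, 5 of 8, 6 of 8 and 6 of 8, were thus close to those of all genes, and no statement is made about their direction from so few genes. The median log2 fold change of the 8 genes was 0.35 in N1 against C0, -0.14 in N2 against C0 and -0.30 in N2 against N1, beside -0.044, 0.0089 and 0.0046 for all genes tested. Without N1 replicate 1 the count called in N1 against C0 was 3 in place of 5.

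**Figure D2:**
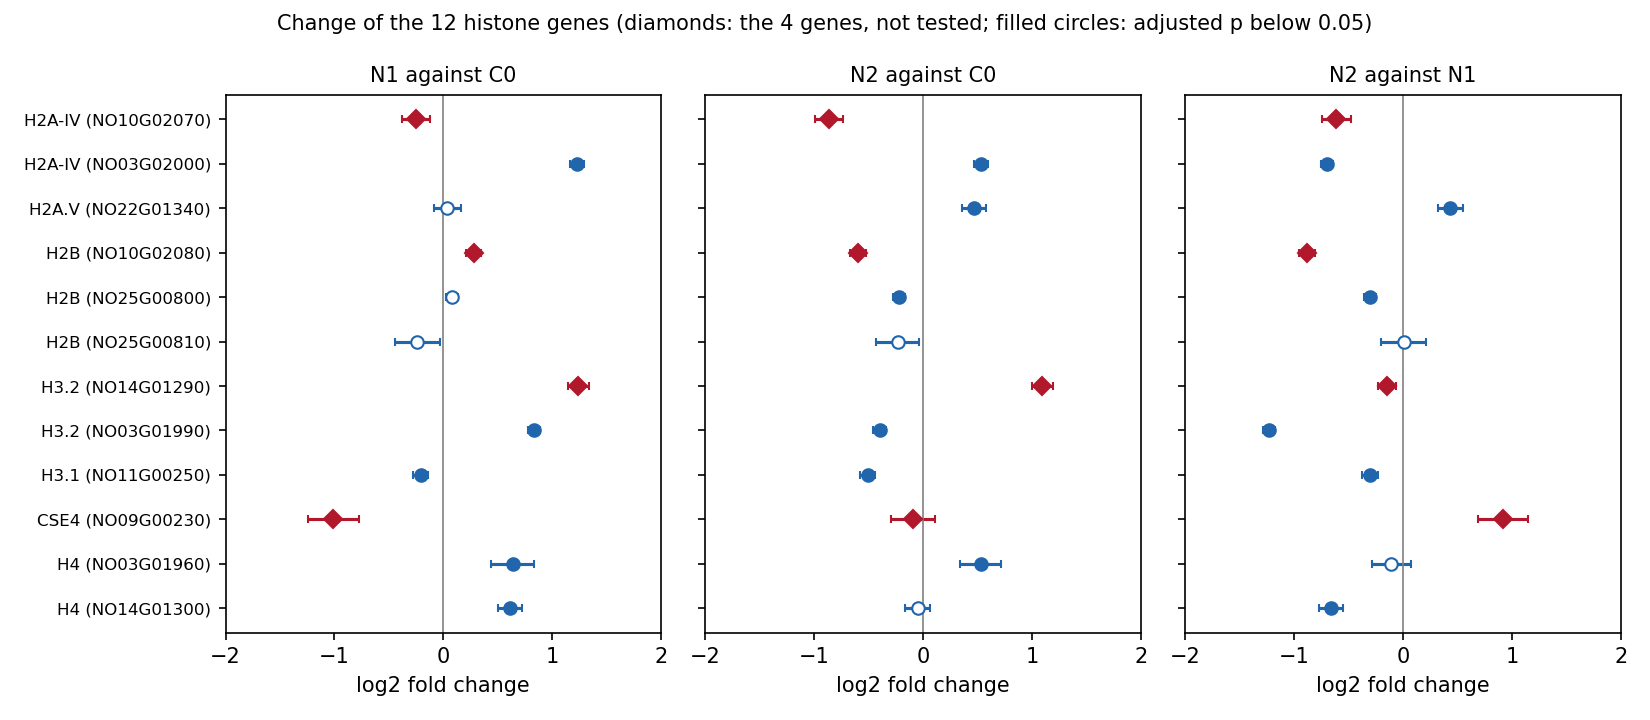
Log2 fold change of the 12 histone genes in each comparison, with bars of 1 approximate SE, ordered by class. Red diamonds are the 4 chosen genes, for which no test is given, filled circles are other histone genes past an edgeR adjusted p of 0.05 and open circles those that were not. In N2 against C0 some genes of equal description lie on opposite sides of 0. These are the H2A-IV genes NO10G02070 (-0.86) and NO03G02000 (0.53) and the H3.2 genes NO14G01290 (1.09) and NO03G01990 (-0.40). The H2B genes all lie below 0 there.

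The share of each gene in its class changed accordingly. Of the summed TPM of the 3 H3 genes, NO14G01290 held 7.42% ± 0.635 (C0), 15.7% ± 1.06 (N1) and 20.7% ± 1.53 (N2), as the mean ± SD of 2 libraries. Of the summed TPM of the 3 H2A genes, NO10G02070 held 36.3% ± 2.01 in C0, 24.9% ± 1.01 in N1 and 17.6% ± 0.877 in N2. Of that of the 3 H2B genes, NO10G02080 held 45.6% ± 1.30 in C0, 53.0% ± 1.99 in N1 and 41.1% ± 3.66 in N2. The H3.2 gene was a growing and the H2A-IV gene a shrinking part of its class over the days, while the share of the H2B gene was largest in N1. Because these genes had been chosen on these comparisons, the shares are a description and nothing is read from their direction. Shares taken from CPM, an alternative added after the data were seen, had the same order over the groups, with 14.1%, 20.9% and 32.3% for H3.2, 19.6%, 9.63% and 8.58% for H2A-IV, and 35.6%, 39.2% and 29.8% for H2B in C0, N1 and N2.

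**Figure D3:**
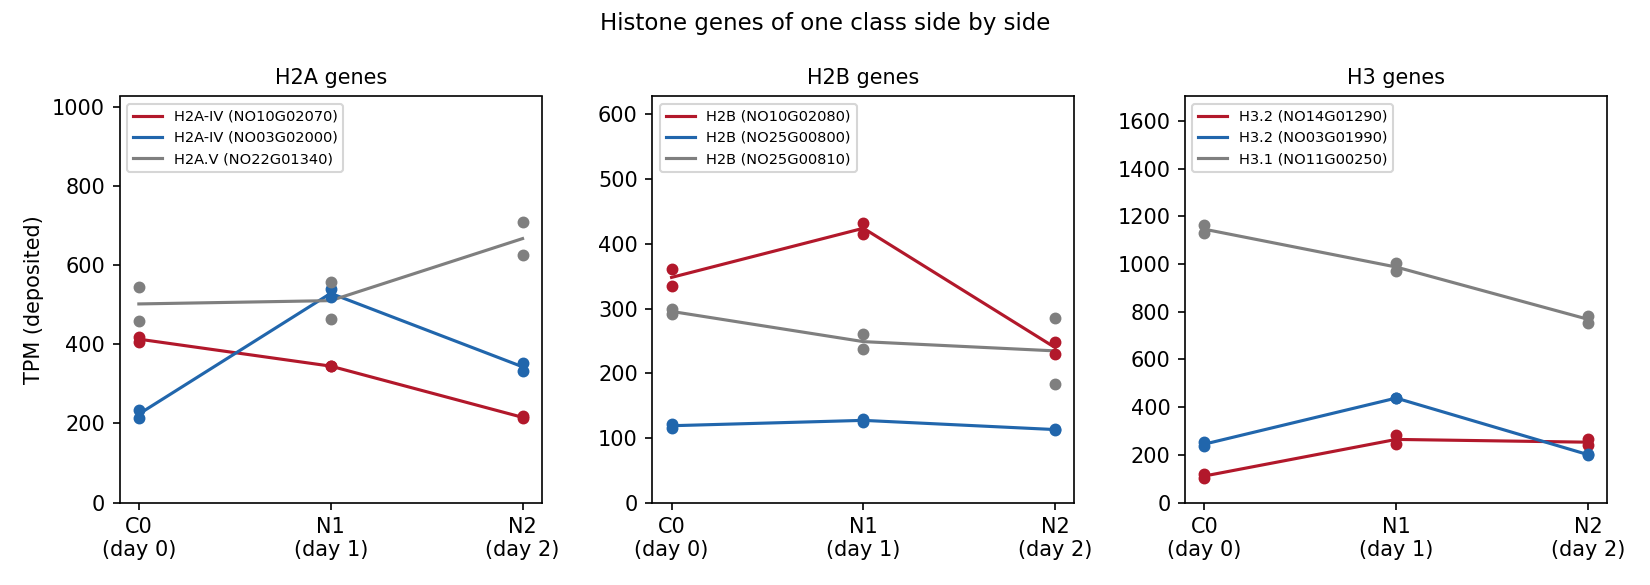
TPM of the H2A, H2B and H3 genes in C0, N1 and N2 (linear axes from 0), with a point for each library and lines through the group means, red for the chosen gene of each class. In the H2A panel NO10G02070 is lower on both ND days while NO03G02000 is higher, and in the H3 panel NO14G01290 stays near its N1 level in N2 while NO03G01990 does not.

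Summed over classes, the chosen genes included, histone transcripts were at their highest level in N1. The 12 genes together had 4301 and 4213 TPM in C0, 5021 and 5087 TPM in N1 and 3840 and 4035 TPM in N2, so N1 stood at 1.19 times C0 and N2 at 0.925 times C0. The 8 other histone genes alone had sums of 1.21 times C0 in N1 and 0.956 times C0 in N2, in TPM. For all 12 genes the ratios in CPM were 1.44 and 0.957, and they took between 0.0896% and 0.128% of the counts of a library. The summed H4 level in N1 was 1.53 times that in C0, that of H2A 1.22 times, that of H3 1.13 times and that of H2B 1.05 times, in TPM. In CPM the order of the classes was another one, with 1.71 times for H2A, 1.60 times for H3, 1.54 times for H4 and 1.10 times for H2B. In N2 against N1 the ratios were 0.708 for H4, 0.886 for H2A, 0.723 for H3 and 0.734 for H2B in TPM, and 0.697 for H4, 0.733 for H2A, 0.584 for H3 and 0.714 for H2B in CPM. All classes of core histone thus had a lower sum in N2 than in N1, but those of H2A, H2B and H3 each include a chosen gene. Because those genes had been chosen on these comparisons, nothing is read from the direction of these sums. The 8 other histone genes alone had 0.788 times their N1 sum in N2 in TPM, and 0.645 times in CPM. The level of CSE4, also a chosen gene, was higher in N2 (1.85 times N1).

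Histone chaperones bind histones before they are placed on DNA. The list of them was made by name and took in genes described otherwise, such as transcription elongation factor SPT6 (NO03G05430). Of its 8 genes, 2 rose and 4 fell in N1 against C0, and 1 rose and 4 fell in N2 against C0. In N2 against N1, 2 rose and 1 fell. The median log2 fold changes were -0.24, -0.17 and 0.10 in the same order. Nucleosome assembly protein 1 (NO12G03330), a chaperone of H2A and H2B, had 101.5 and 105.7 CPM in N1 and 127.8 and 116.9 CPM in N2, against 271.5 and 277.0 CPM in C0. It fell by 1.41 ± 0.061 on the log2 scale in N1 (edgeR adjusted p = 3.92e-11) and by 1.16 ± 0.058 in N2 (adjusted p = 2.09e-10). The chaperone asf1 of H3 and H4 (NO07G02280, chosen after its values were seen) fell as well, by 0.49 ± 0.11 in N1 and 0.56 ± 0.11 in N2 against C0 (adjusted p = 0.00115 and 0.000304). Subunit B of chromatin assembly factor 1 (NO10G00890), which places H3 and H4 on newly copied DNA, rose in N2 against C0 (0.89 ± 0.16, adjusted p = 0.000209). Its rise in N1 against C0 (0.53 ± 0.18, adjusted p = 0.0151) was lost without C0 replicate 1 (adjusted p = 0.0997) and with DESeq2 (0.0721). The list's percentages called were 75.0% in N1 against C0, 62.5% in N2 against C0 and 37.5% in N2 against N1, beside 70.4%, 69.9% and 57.9% of all genes in the same order. Its counts were unstable. In N2 against N1, 4 genes were higher with library totals as the only scaling, 0 by DESeq2 or without N2 replicate 1 and 1 without N1 replicate 2, and 0 were lower on the log2(TPM + 1) scale. In N1 against C0, 1 gene was higher by DESeq2, on the log2(TPM + 1) scale and without C0 replicate 1 or 2. In N2 against C0, 2 were higher with library totals only or on the log2(TPM + 1) scale, and 2 were lower on that scale or without C0 replicate 2.

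DNA replication needs new histones. Of 41 genes tested among 42 listed, 9 rose and 20 fell in N1 against C0 (median log2 fold change -0.34), 15 rose and 8 fell in N2 against C0 (0.26), and 26 rose and 0 fell in N2 against N1 (0.49). For the last comparison no gene was lower at an unadjusted p under 0.05 either, where 27 were higher, and DESeq2 called 18 higher and 0 lower. Of the list 70.7%, 56.1% and 63.4% were called in N1 against C0, N2 against C0 and N2 against N1, beside 70.4%, 69.9% and 57.9% of all genes, of which 29.4% were higher and 28.5% lower in N2 against N1. No test set the list against all genes. The helicase subunit mcm6 (NO03G05310) had 28.7 and 25.2 CPM in N1, against 84.4 and 79.6 CPM in C0 (-1.60 ± 0.11, edgeR adjusted p = 4.20e-09). In N2 it had 60.7 and 55.9 CPM, more than in N1 (1.11 ± 0.11, adjusted p = 8.28e-07). The largest rise in N1 against C0 was that of the DNA primase small subunit NO03G04980 (0.82 ± 0.19, adjusted p = 0.00175). In N2 against C0 it was that of DNA polymerase epsilon subunit B NO10G03890 (1.18 ± 0.18, adjusted p = 3.85e-05), and the largest fall was that of another gene of this polymerase, subunit 3 NO19G01290 (-1.17 ± 0.13, adjusted p = 1.36e-06).

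Genes of the centromere, kinetochore and chromosome structure are the setting in which CSE4 works. Of 29 tested, 8 rose and 12 fell in N1 against C0 (median log2 fold change -0.28), 13 rose and 2 fell in N2 against C0 (0.24), and 16 rose and 2 fell in N2 against N1 (0.54). With DESeq2 the count of falls in N1 against C0 was 6, and on the log2(TPM + 1) scale that in N2 against N1 was 1. In the order of the comparisons, 69.0%, 51.7% and 62.1% of the list were called, beside 70.4%, 69.9% and 57.9% of all genes. Condensin-2 subunit G2 (NO22G01490), of a complex that compacts chromosomes, fell in N1 against C0 (-1.16 ± 0.090, edgeR adjusted p = 2.80e-08), while condensin-2 subunit D3 (NO11G01790) rose in N2 against C0 (1.41 ± 0.096, adjusted p = 7.07e-09). The largest rise in N1 was that of a non-structural maintenance of chromosomes element 4 homolog (NO16G02840, 1.38 ± 0.24, adjusted p = 0.000148). The largest fall in N2 was that of a mitotic cyclin B (NO23G01320, -1.09 ± 0.070, adjusted p = 3.59e-09). By its description that gene is a cyclin and not a part of the centromere or of chromosomes. It and another mitotic cyclin B gene of this list, NO07G04620, are also in the wider list of cell cycle names below. CSE4 was lower in N1 than in C0 and N2, but having been chosen by its values it adds nothing to these counts.

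**Figure D4:**
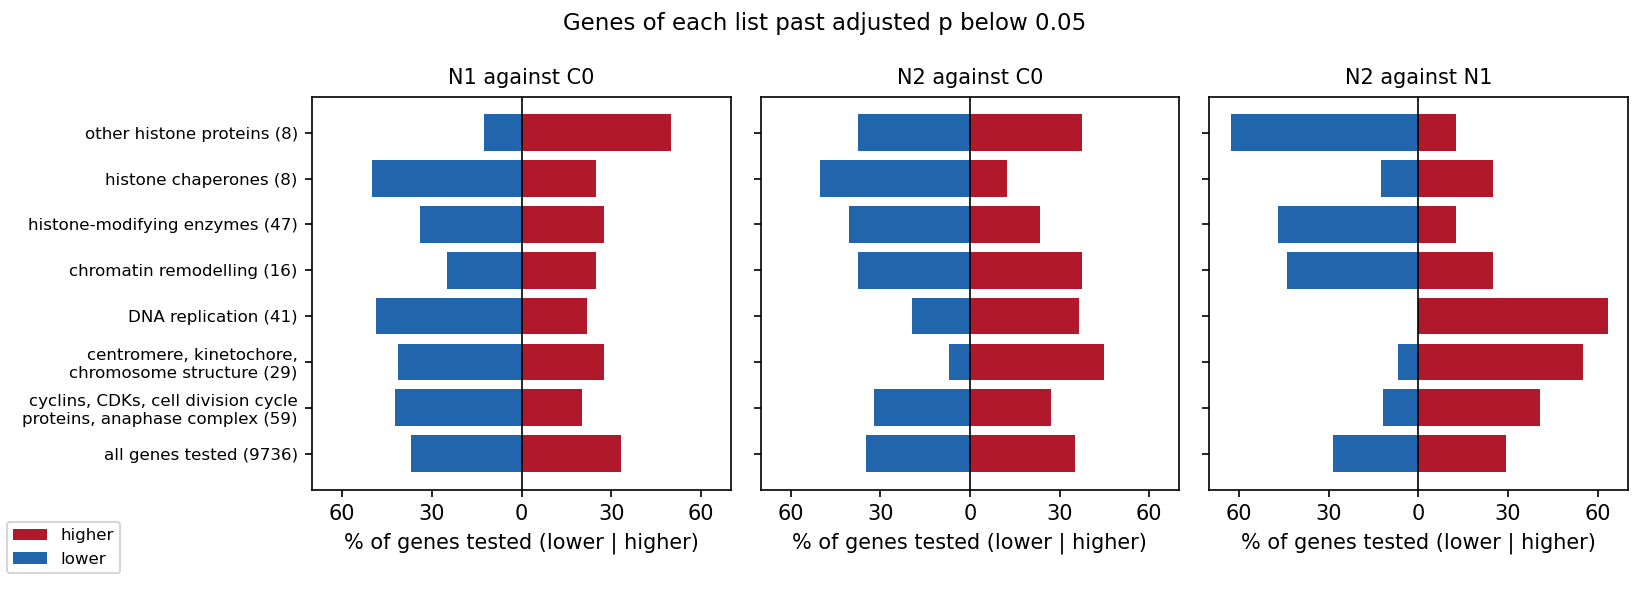
Percentage of the tested genes of each list that passed an edgeR adjusted p of 0.05, higher to the right in red and lower to the left in blue, with the number of genes in brackets and all genes tested in the last row. The chosen 4 genes are left out of the lists but are among all genes tested. DNA replication has 26 of 41 genes higher and 0 lower in N2 against N1.

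Histone-modifying enzymes add or remove chemical groups on histones, and remodelling factors move or replace nucleosomes. The list of modifying enzymes was made by name. It took in genes such as the deacetylase complex subunit SAP18 (NO18G01320) and a CTD small phosphatase-like protein (NO12G02280). Of its 47 genes, 13 rose and 16 fell in N1 against C0, and 11 rose and 19 fell in N2 against C0. In N2 against N1, 6 rose and 22 fell. The median log2 fold changes were 0.040, -0.091 and -0.17 in the same order. The falls of the last comparison numbered 14 with library totals as the only scaling and 11 on the log2(TPM + 1) scale. The percentages called, 61.7%, 63.8% and 59.6%, stood beside 70.4%, 69.9% and 57.9% of all genes. Histone deacetylase 6 (NO03G04700) had the largest rise in N1 (1.78 ± 0.22, edgeR adjusted p = 5.33e-06). In N2 it was that of lysine-specific demethylase 5A (NO29G00780), which in animals removes methyl groups from H3 (1.30 ± 0.058, adjusted p = 6.78e-11). The largest fall in both was that of NO27G00700 (-2.32 ± 0.12 and -2.36 ± 0.11, adjusted p = 1.54e-10 and 9.33e-11). That gene is described as an NAD-dependent protein deacylase with the KEGG term SIRT4, and neither label names histones. Of 16 remodelling genes, 4 rose and 4 fell in N1 against C0 (50.0% called), 6 rose and 6 fell in N2 against C0 (75.0%), and 4 rose and 7 fell in N2 against N1 (68.8%). In the last comparison 2 were higher by DESeq2 or without N2 replicate 1 or 2, and 3 were lower on the log2(TPM + 1) scale. Among them SMARCC2 of the SWI/SNF complex (NO13G03030) rose by 0.72 ± 0.12 and CHROMATIN REMODELING 19 (NO02G01430) fell by 0.75 ± 0.089 in N1 (adjusted p = 7.24e-05 and 2.65e-06), and SNF2L1 (NO04G01380) fell by 1.16 ± 0.056 in N2 (adjusted p = 1.59e-10). The rise of the chromodomain helicase 7 gene NO10G00580 in N2 (0.44 ± 0.12, adjusted p = 0.00453) was lost without C0 replicate 1 (adjusted p = 0.0756) and with DESeq2 (0.0524).

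A wider list, made by searching descriptions for cell cycle names, held 59 genes. Of these, 12 were described as subunits of the anaphase-promoting complex, which marks proteins for breakdown in mitosis, and 17 as cell division control or cell division cycle proteins. The others were described as cyclins, cyclin-dependent kinases, their regulatory subunit or Wee1-like kinases. Such names do not place every gene in the cell cycle. The list took in homologs of CDC48 (KEGG terms such as VCP), CDC5-like proteins (CDC5L) and cyclins with the term CCNT. Of all 59 genes, 12 rose and 25 fell in N1 against C0, and 16 rose and 19 fell in N2 against C0. In N2 against N1, 24 rose and 7 fell. The percentages called were 62.7%, 59.3% and 52.5%, beside 70.4%, 69.9% and 57.9% of all genes. The falls in N2 against C0 numbered 12 by DESeq2 or on the log2(TPM + 1) scale, and in N2 against N1 15 were higher by DESeq2 and 4 lower on the log2(TPM + 1) scale. The extremes of the list were a cell division cycle protein 20 homolog (NO02G02210, 1.92 ± 0.25, edgeR adjusted p = 7.95e-06), an activator of the anaphase-promoting complex, and cyclin-U3-1 (NO14G02130, -1.42 ± 0.037, adjusted p = 1.33e-13) in N1 against C0. In N2 against C0 they were anaphase-promoting complex subunit 10 (NO01G04760, 1.12 ± 0.19, adjusted p = 8.28e-05) and a cell division cycle protein 48 homolog (NO27G00850, -1.13 ± 0.20, adjusted p = 0.000132). The sliding clamp gene of replication, proliferating cell nuclear antigen (NO06G02560, chosen after its values were seen), had 90.6 and 92.1 CPM in N1 and 95.7 and 102.2 CPM in N2, against 61.3 and 61.7 CPM in C0. It rose by 0.57 ± 0.079 in N1 and by 0.69 ± 0.075 in N2 against C0 (adjusted p = 1.40e-05 and 1.30e-06). This gene belongs to the DNA replication list. Of that list 9 genes rose and 20 fell in N1 against C0, so its rise in N1 went against most genes called there. In N2 against C0, 15 genes of that list rose and 8 fell.

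The genes whose log2 CPM profiles over the 6 libraries were most like those of the 4 genes were not histones. Likeness was measured as the Euclidean distance between profiles centred on their means, among 5275 genes with a named function and a mean of at least 10 CPM. For H2A-IV the nearest were protein BFR2 (NO03G02220, distance 0.0951), a 60 kDa chaperonin (NO11G02260, 0.121) and an aquaporin (NO01G04190, 0.134). For H2B they were a photosystem I chlorophyll a/b-binding protein (NO12G02640, 0.105), a chloroplastic RNA pseudouridine synthase (NO20G01690, 0.126) and an NDUFAF7 homolog (NO08G02620, 0.128). For H3.2 they were a lipase (NO02G00120, 0.108), a vesicle transport v-SNARE (NO04G03160, 0.152) and mitochondrial malate dehydrogenase (NO09G03170, 0.164). For CSE4 they were golgin candidate 3 (NO28G01080, 0.112) and the ribosomal proteins L44 (NO10G02500, 0.216) and P2 (NO06G04320, 0.235). The closest of the 4 to each other were the neighbours H2A-IV and H2B, at a distance of 0.564, and the farthest were H3.2 and CSE4, at 2.23. With 6 libraries in 3 groups such distances mainly measure the 2 steps between group means, and many genes can share them.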

How the data were processed

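The 4 members and the gene lists were chosen with earlier results of these data known. Per the study's methods and the submitters' processing notes, strand-nonspecific libraries were trimmed (Trim Galore) and aligned to the IMET1 genome (STAR), duplicates were marked (Picard) and reads counted (featureCounts, StringTie). The tools' versions are not given in the sources used here. The deposited tables hold expected counts per gene as estimated by the authors. Between 78.87% and 80.11% of genes in a library had whole counts and the rest fractional ones. Which tool gave these expected counts was not established here. The deposited TPM values had been scaled by the authors for effective length and library. The deposited FPKM values, scaled by the authors for length and library total, were not used for results. The authors' 3 comparison tables (fold changes, p-values) were left out. Reads of genes that overlap on opposite strands cannot be told apart. N2 replicate 2 has no treatment label and was grouped by its title. The labels mention more replicates than the 2 per group analysed here.

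Estimated counts were rounded, and 9736 of 10569 genes, those reaching 1 CPM in 2 or more libraries, were scaled by TMM and fitted in edgeR 4.0.16 (R 4.3.3) with the two-sided quasi-likelihood test, all 6 libraries and group as the only term. A gene was called when its p, adjusted by Benjamini-Hochberg over the genes tested, was below 0.05. The approximate SE is the absolute log2 fold change over the square root of F. The 3 comparisons share libraries, so their values are not independent. Scripts were tested on simulated data. Lists came from searches in Swiss-Prot descriptions. Named genes were the members, the other histone genes, the genes beside each member, the 3 nearest profiles (log2 CPM, prior count 2, mean of at least 10 CPM), the largest called rise and fall of each list (mean of at least 10 CPM) in N1 and N2 against C0, and the nitrate transporter, besides genes named as chosen after their values were seen. Alternatives were DESeq2 size factors, library totals only, the DESeq2 1.42.0 test, no filter, a minimum of 10 CPM, a replicate block, limma 3.58.1 on log2(TPM + 1), and leaving out each library.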

Additional observations from a re-analysis of the deposited data

Results flagged for a closer look

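For 6 of the 8 other histone genes the change from C0 differed between the ND days, which the test of N2 against N1 addresses directly (edgeR, both changes set against the same C0 libraries). NO03G01990 (H3.2) was lower at day 2 by a log2 difference of -1.23, NO03G02000 (H2A-IV) of -0.698, NO14G01300 (H4) of -0.663, NO25G00800 (H2B) of -0.304 and NO11G00250 (H3.1) of -0.303, with adjusted p-values of 3.27e-10, 1.74e-07, 0.000122, 0.000251 and 0.0025 in the order named. NO22G01340 (H2A.V) was higher at day 2 by 0.432 (adjusted p = 0.00485), a call lost without N1 replicate 2 (log2 difference 0.242). On the log2(TPM + 1) scale the calls of NO22G01340 and NO25G00800 were lost (limma adjusted p = 0.0771 and 0.0863). Of all genes tested 57.9% were called in this comparison. The H2B gene NO10G02080 had both N1 libraries above C0 (log2 fold change 0.281) and both N2 libraries below it (-0.602). This difference was not tested, because the gene had been chosen by these values.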

How the results depend on the processing

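For the 4 chosen genes, 155 of 156 fold changes under alternatives kept their sign, the exception being CSE4 in N2 against C0 without a single library. Values that moved by more than their SE were H3.2 in N2 against N1 with library totals only (-0.050 in place of -0.15) and H2B in N2 against N1 with library totals only (-0.79 in place of -0.88), and H3.2 without N1 replicate 1 in N1 against C0 (1.35 in place of 1.24) and in N2 against N1 (-0.25 in place of -0.15). Library totals as the only scaling shifted the median of all genes by 0.0951 in N2 against N1. Leaving out single libraries gave between 1.15 and 1.35 for H3.2 in N1 against C0 and between -0.25 and -0.079 in N2 against N1. It gave between 3 and 5 called among the other histone genes in N1 against C0. The signs of NO22G01340 in N1 against C0 (-0.019 with library totals only) and of NO25G00810 in N2 against N1 (-0.031 with DESeq2 size factors) turned, and neither had been called. The counts of all genes called stayed within 1.5 times under every alternative run. Replicate numbers did not pair the libraries (correlations of replicate deviations across genes -0.0216, 0.0131 and -0.0464), and with a replicate block 6745, 6689 and 5527 genes were called in N1 against C0, N2 against C0 and N2 against N1, beside 6851, 6806 and 5633 without it. The cause of these shifts was not tested. CSE4 rests on 34 to 105 estimated counts a library, and 2 libraries a group limit every spread given.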
